A study of Mus musculus with 5 samples.

Results

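Matrix proteases, their tissue inhibitors and matrix repair proteins were followed as 10 genes chosen by name, which were looked up by symbol among the 35275 genes of the expression table. The proteases were Mmp2 and Mmp14, the inhibitors Timp1, Timp2, Timp3 and Timp4, the crosslinking enzymes Lox and Loxl1, and the matricellular proteins Postn and Tnc. All 10 were found, and all 10 averaged 1 FPKM or more. FPKM is the reads of a gene scaled by its length and by the total of the library.

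RNA was sequenced from gastrocnemius muscle of female NSG mice, whose listed age was 12 weeks, in 5 samples of 1 group. The strain (NOD scid gamma) has no mature lymphocytes or natural killer cells but keeps macrophages with reduced function, and the labels give its genotype as wild type. The mice had been given extracellular vesicles from MCF-10A/miR122 cells, a human breast epithelial line whose label names the microRNA miR-122, by tail vein. The dose was about 10 µg per injection, 2 injections a week over 5 weeks and 10 in all, and muscle was collected 2 days after the last. No untreated muscle was set beside these samples, so the values describe treated muscle and its spread between libraries, and no difference from control is given. Whether each number is a separate animal is not stated, so the spread may be partly technical.

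Muscle fibres sit in a matrix of collagens and glycoproteins that is continually cut and rebuilt. Mmp14 is a membrane-bound collagenase that activates the secreted gelatinase Mmp2, and Timp2 takes part in that activation as well as inhibiting both enzymes. Lox and Loxl1 oxidise lysines so that collagen and elastin fibres can be crosslinked, while periostin (Postn) and tenascin-C (Tnc) are matrix glycoproteins best known from tissue that is growing or being repaired.

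Depth, recovered from the values themselves, ran from 16674504 reads in library 3 to 25407988 in library 5. Library 3 stood apart and gave the highest level for 4005 of the 10710 genes that averaged 1 FPKM or more (37.4%), against 2486 for library 2 and 823 for library 5. The means of the 10 genes are therefore given with and without it. The labelled tissue was borne out as skeletal muscle by 6 fibre genes. No other muscle was compared, so whether it was gastrocnemius was not tested. The 6 genes summed to between 65996 FPKM in library 2 and 93250 FPKM in library 4, led by Acta1 (32368 ± 1983 FPKM), Tnnt3 (15842 ± 3062) and Mylpf (11145 ± 1297).

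The 10 genes fell into a steady set and a set that was far higher in library 3. Timp2, Mmp2, Timp3 and Timp4 differed by at most 1.87-fold between the highest and lowest library. Postn and Timp1 spanned 22.7-fold and 21.3-fold, Tnc 6.38-fold, Lox 6.03-fold and Loxl1 3.35-fold, each with its highest level in library 3. Mmp14 lay between, at 2.32-fold.

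**Figure D1:**
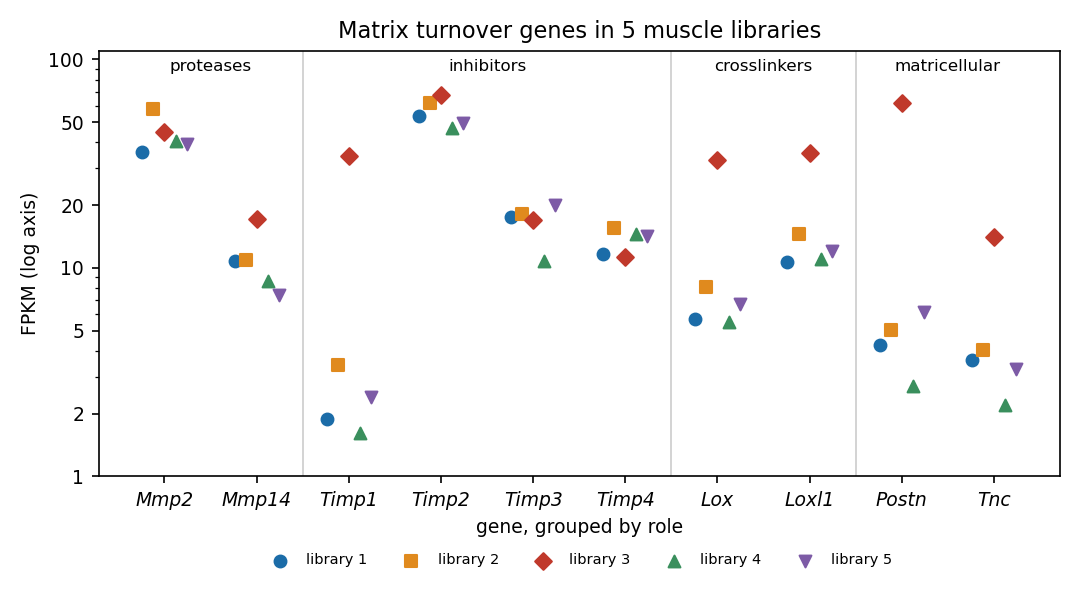
FPKM (log axis) of the 10 genes in each of the 5 libraries, grouped by role, with 1 point per library. Library 3 lies clear of the others for Timp1, Lox, Loxl1, Postn and Tnc, whereas Mmp2, Timp2, Timp3 and Timp4 stay within 1.87-fold.

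Among the proteases, Mmp2 (ENSMUSG00000031740, GRCm38 chromosome 8, 92827291 to 92853420) was at 36.0, 58.0, 44.7, 40.6 and 39.5 FPKM in libraries 1 to 5. Library 2 was the highest, and library 3 was close to the mean of 43.8 ± 8.54 FPKM (SD, n = 5), which was 43.5 ± 9.85 FPKM without library 3 (n = 4). Mmp14 (ENSMUSG00000000957, chromosome 14, 54431612 to 54445364) was at 10.8, 10.9, 17.2, 8.65 and 7.43 FPKM. Library 3 was 1.58-fold above the next library, and the mean was 11.0 ± 3.78 FPKM, or 9.44 ± 1.70 FPKM over the other 4 libraries. Mmp14 thus lay below Mmp2 in every library, by a log2 ratio of -1.93 ± 0.43 on the log2(FPKM + 1) scale (SD, n = 5; lower in 5 of 5 libraries). A sign-flip permutation test (exact, two-sided, 5 libraries) gave p = 0.063, the smallest that 5 libraries allow, so none of the 8 ratios given in this text could pass 0.05.

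The inhibitors were led by Timp2 (ENSMUSG00000017466, chromosome 11, 118301069 to 118355740), the most abundant of the 10 genes in every library. It was at 53.5, 61.5, 67.7, 46.9 and 49.3 FPKM in libraries 1 to 5, with a mean of 55.8 ± 8.65 FPKM, or 52.8 ± 6.39 FPKM without library 3. Its coefficient of variation was 15.5%, near the median of 16.3% over all genes tested. Timp2 exceeded Mmp2 in all 5 libraries by a log2 ratio of 0.35 ± 0.22, and Mmp14 by 2.28 ± 0.25 (p = 0.063 each, exact sign-flip test).

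Timp3 (ENSMUSG00000020044, chromosome 10, 86300372 to 86349506), which unlike the other inhibitors is held in the matrix, was at 17.6, 18.2, 17.0, 10.7 and 20.1 FPKM. Library 4 was the low one, apart from the other 4, and the mean was 16.7 ± 3.55 FPKM, or 16.7 ± 4.09 FPKM without library 3. Timp4 (ENSMUSG00000030317, chromosome 6, 115241892 to 115252205), an inhibitor known for its level in heart and muscle, was at 11.7, 15.6, 11.3, 14.6 and 14.3 FPKM. It was the steadiest of the 10 genes, with a mean of 13.5 ± 1.88 FPKM (14.0 ± 1.66 FPKM without library 3), and the only one with its lowest level in library 3. Timp3 exceeded Timp4 in 4 of 5 libraries, by a log2 ratio of 0.27 ± 0.41 (p = 0.1875, exact sign-flip test), so at the length behind the deposited values their order did not hold beyond the spread. At annotated exon length the ratio was 1.32 (p = 0.063, exact sign-flip test), so this order rests on the length used. That value was scaled from the shortest length that gives whole reads, and longer multiples also fit. Timp2 exceeded Timp3 in all 5 libraries by 1.69 ± 0.31 (p = 0.063, exact sign-flip test).

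Timp1 (ENSMUSG00000001131, chromosome X, 20870166 to 20874735), the inhibitor best known for being induced by growth factors and inflammation, was at 1.88, 3.42, 34.4, 1.62 and 2.41 FPKM in libraries 1 to 5. The value of library 3 rested on 507 reads and had an exact 95% Poisson interval of 31.5 to 37.6 FPKM, which covers counting error only. The other 4 libraries held 34 to 56 reads each, and their intervals reached at most 4.44 FPKM, so the gap was far beyond counting error. The mean was 8.75 ± 14.4 FPKM with library 3 and 2.33 ± 0.798 FPKM without it (n = 4). Timp1 was the lowest of the 10 genes in libraries 1, 2, 4 and 5 and stood at rank 5 in library 3.

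Summed over the 4 TIMP genes, the level was 84.7, 98.7, 130.4, 73.9 and 86.1 FPKM in libraries 1 to 5. Timp1 took 26.4% of that sum in library 3 and 2.19% to 3.47% in the others, while Timp2 took 51.9% in library 3 and 57.3% to 63.6% elsewhere. Timp2 exceeded Timp1 in all 5 libraries by a log2 ratio of 3.42 ± 1.39 (p = 0.063, exact sign-flip test), at 0.95 in library 3 and 3.82 to 4.24 in the others. The summed TIMP level was 1.74 ± 0.274 times the summed level of Mmp2 and Mmp14 (SD, n = 5), 2.11 times in library 3 and between 1.43 and 1.84 times elsewhere. All 3 of the inhibitor genes Timp1, Timp3 and Timp4 lie inside synapsin genes (Syn1, Syn3 and Syn2) on the opposite strand, and whether counting used strand is not stated. Timp3 shares 1733 of its 8144 annotated exon bases with Syn3 and Timp4 shares 90 of 5894 with Syn2. The synapsin genes were low, at up to 0.102 FPKM for Syn3, 1.29 for Syn2 and 1.56 for Syn1, and Timp1 shares no exon bases with Syn1.

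**Figure D2:**
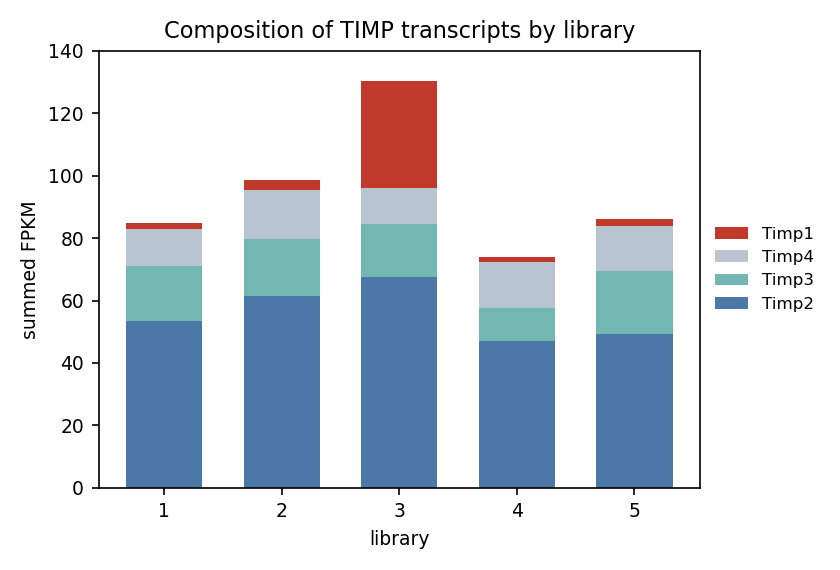
Summed FPKM of the 4 TIMP genes in each library, stacked by gene from 0. Timp2 forms the largest part of each bar, and the Timp1 part is 26.4% in library 3 against at most 3.47% in the others.

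Of the crosslinking enzymes, Lox (ENSMUSG00000024529, chromosome 18, 52516067 to 52529867), the founding lysyl oxidase, was at 5.67, 8.12, 33.0, 5.48 and 6.72 FPKM in libraries 1 to 5. Library 3 was 4.07-fold above the next, and the mean was 11.8 ± 11.9 FPKM, or 6.50 ± 1.21 FPKM without library 3. Loxl1 (ENSMUSG00000032334, chromosome 9, 58287738 to 58313186), which is known for its part in elastic fibres, was at 10.6, 14.6, 35.6, 11.1 and 12.0 FPKM. Library 3 was 2.45-fold above the next, and the mean was 16.8 ± 10.6 FPKM, or 12.1 ± 1.77 FPKM without it. Loxl1 exceeded Lox in all 5 libraries by a log2 ratio of 0.67 ± 0.32 (p = 0.063, exact sign-flip test). The ratio was 0.11 in library 3 and 0.75 to 0.90 in the others, so Lox made up 48.1% of the summed level of both enzymes in library 3 and 33.1% to 35.9% elsewhere.

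The matricellular genes held the widest range. Postn (ENSMUSG00000027750, chromosome 3, 54361109 to 54391037) was at 4.27, 5.02, 61.7, 2.72 and 6.13 FPKM, which placed it at rank 2 of the 10 genes in library 3 and at rank 8 in each other library. The highest value was 10.1-fold above the next, and the mean was 16.0 ± 25.6 FPKM, or 4.53 ± 1.43 FPKM without library 3. Tnc (ENSMUSG00000028364, chromosome 4, 63959785 to 64047015) was at 3.62, 4.03, 14.1, 2.20 and 3.27 FPKM. Library 3 was 3.49-fold above the next, and the mean was 5.44 ± 4.86 FPKM, or 3.28 ± 0.784 FPKM without it. Postn exceeded Tnc in all 5 libraries by a log2 ratio of 0.69 ± 0.80 (p = 0.063, exact sign-flip test), at 2.06 in library 3 and 0.19 to 0.74 in the others. With annotated exon length in place of the recovered length, the mean ratio of Postn to Tnc was 0.0006 (p = 1, exact sign-flip test). The recovered length of Postn, 4357 bases against 8702 annotated, is the shortest that gives whole reads, and its multiples also fit. Whether their order changes with the length is therefore not settled.

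**Figure D3:**
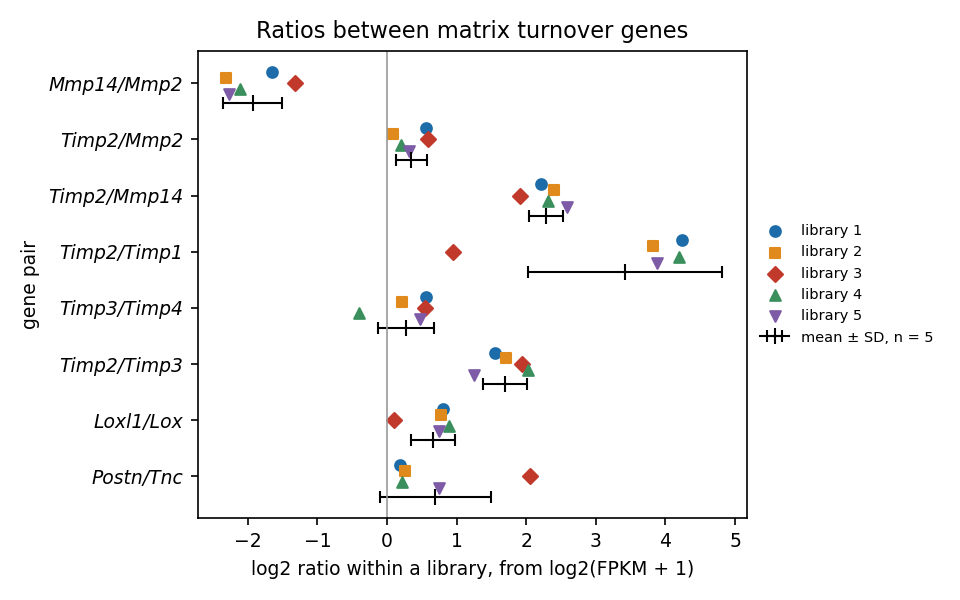
Log2 ratio within a library for 8 gene pairs, from log2(FPKM + 1), with 1 point per library and the mean ± SD below (n = 5). Library 3 lies away from the other libraries for Timp2 over Timp1 (0.95), Loxl1 over Lox (0.11) and Postn over Tnc (2.06).

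Of the 10 genes, only Timp2, at rank 1, and Tnc, at rank 9, kept their rank in every library by the deposited values. Mmp2 was at rank 2 except in library 3, where Postn (61.7 FPKM) lay above it (44.7 FPKM). Ranks by library, here and above, were not taken at annotated exon length and may differ there. At that length Postn averaged 8.0 FPKM and Mmp2 39.4 FPKM. Among neighbours ordered by mean, Timp2 exceeded Mmp2, and Mmp2 exceeded Loxl1, in all 5 libraries. Below them, each of the other 7 neighbouring pairs, ordered by mean, exchanged places in at least 1 library, and Postn, Lox and Timp1 stood above their lower neighbour in only 1 of 5 libraries. Without library 3 the order by mean was Timp2, Mmp2, Timp3, Timp4, Loxl1, Mmp14, Lox, Postn, Tnc and Timp1. The place of Timp4 may also rest on length. The shortest length that fits its deposited values is 1416 bases, against 5894 annotated exon bases, and multiples of 1416 fit too. Scaled from the shortest lengths to annotated exon length, with all 5 libraries, Timp4 averaged 3.24 FPKM, the lowest of the 10 genes. Mmp14 was then at 4.79 and Tnc at 4.97 FPKM.

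The spread of each gene was tested against that of genes of like level, with limma over all 10710 genes. None passed an adjusted p of 0.05 (0% of genes tested, 0 of the 10 members), and at an unadjusted p under 0.05 there were 616 genes, 5 members among them. These 5 were Postn (SD 1.62 on the log2 scale, adjusted p = 0.640), Timp1 (1.57, 0.640), Lox (1.00, 0.640), Tnc (0.86, 0.640) and Loxl1 (0.69, 0.687). In data simulated for the same genes, an SD 8 times the trend was never called by adjusted p and an SD 64 times the trend was called in 60% of genes, so the test has little power with 5 libraries. By the size of that ratio Postn was at place 6 and Timp1 at place 9 of the 10710 genes. Timp3 was at place 1484, Mmp2 at 2709, Timp2 at 3946 and Timp4 at 4862. The coefficient of variation was 21.2% for Timp3 and 19.5% for Mmp2, above the median of all genes tested. The median coefficient of variation was 48.9% for the 10 members against 16.3% for all genes tested, and without library 3 it was 20.6% against 14.2%. A chi-square test of the reads against counting error alone was passed by 87.9% of genes, and by all 10 members, the largest adjusted p being 1.27e-05 for Timp4.

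Library 3 was the highest for 7 of the 10 members, against 37.4% of all genes tested. They were Timp1, Timp2, Mmp14, Lox, Loxl1, Postn and Tnc. For 4 members, Timp1, Lox, Loxl1 and Postn, the gap from library 3 to the next exceeded a share of 0.71 of the whole range on the log2(FPKM + 1) scale, the limit of Dixon's rule for 5 samples. That share was 0.708 for Tnc, just under the limit, and 0.746 for Loxl1, the lowest of the 4. Of all genes tested, 3.94% met the same rule with library 3 as the high one.

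Upstream sequence was available for 7 of the 10 genes (RefSeq, GRCm38.p6), with Mmp2, Lox and Loxl1 missing. The 250 bases before the RefSeq start are shown, 5′ to 3′ on the strand of the gene, for Timp1, Postn and Tnc, which were high together in library 3, and for the steady Timp2. Capitals mark matches, on either strand, to the TATA motif TATAAA or the GC box GGGCGG. The AP-1 motif TGANTCA and its variant TGAGTAA were also searched and had no match in these windows, and no matches overlapped.
Timp1: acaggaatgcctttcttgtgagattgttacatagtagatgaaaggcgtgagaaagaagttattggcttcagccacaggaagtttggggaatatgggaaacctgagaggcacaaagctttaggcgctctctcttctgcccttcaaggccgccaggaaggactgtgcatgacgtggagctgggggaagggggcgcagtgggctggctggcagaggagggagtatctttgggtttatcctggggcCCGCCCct
Postn: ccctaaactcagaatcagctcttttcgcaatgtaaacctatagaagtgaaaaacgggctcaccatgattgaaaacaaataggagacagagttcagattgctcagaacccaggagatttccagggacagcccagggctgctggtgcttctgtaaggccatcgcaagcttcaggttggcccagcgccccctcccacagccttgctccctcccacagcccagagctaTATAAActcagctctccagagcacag
Tnc: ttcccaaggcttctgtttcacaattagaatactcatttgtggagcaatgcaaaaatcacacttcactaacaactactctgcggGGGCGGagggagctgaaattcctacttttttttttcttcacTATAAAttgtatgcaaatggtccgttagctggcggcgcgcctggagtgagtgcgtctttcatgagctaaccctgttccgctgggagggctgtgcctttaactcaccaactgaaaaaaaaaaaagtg
Timp2: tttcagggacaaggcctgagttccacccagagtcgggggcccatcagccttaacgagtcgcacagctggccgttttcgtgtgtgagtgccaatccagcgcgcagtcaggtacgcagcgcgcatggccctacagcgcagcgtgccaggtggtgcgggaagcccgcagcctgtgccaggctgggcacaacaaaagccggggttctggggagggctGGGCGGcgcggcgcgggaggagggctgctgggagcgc
The windows are chrX:20869916-20870165 on the plus strand for Timp1, chr3:54360857-54361106 on the plus strand for Postn, chr4:64047016-64047265 on the minus strand for Tnc and chr11:118355412-118355661 on the minus strand for Timp2. Counted back from the base before the start, which is -1, TATAAA lay at -26 to -21 in Postn and at -126 to -121 in Tnc. The GC box lay at -8 to -3 in Timp1 (on the other strand), at -167 to -162 in Tnc and at -37 to -32 in Timp2. Among 32851 windows of this length in the same set, 12.4% held TATAAA, 32.7% GGGCGG, 6.75% TGANTCA and 2.25% TGAGTAA. A match is a description of the letters, and no motif was found in all of the Timp1, Postn and Tnc windows. The RefSeq start used for Timp2 lies 329 bases from the GENCODE start, and that of Postn 2 bases.

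Other genes that cut the matrix were mostly low. Counts of genes highest in library 3, here and in the lists that follow, stand against 37.4% of all genes tested. Of 19 other matrix metalloproteinase genes, 5 averaged 1 FPKM or more, 3 of these were highest in library 3, and Mmp7, Mmp10, Mmp20 and Mmp21 were listed at 0 in all libraries. The membrane-type enzyme Mmp15 led with 11.6 ± 1.20 FPKM and was not highest in library 3 (12.7 FPKM there, 9.86 to 12.8 elsewhere). It was followed by Mmp11 at 2.17 ± 0.544 FPKM (2.20 in library 3) and Mmp23 at 2.02 ± 0.979 FPKM (3.72 in library 3 and 1.26 to 1.83 elsewhere). The others highest in library 3, named after their values were seen, were Mmp19 (2.59 FPKM there and 0.486 to 1.27 elsewhere) and Mmp28 (1.67 there and 0.721 to 1.10 elsewhere). Both reached a mean of 1 FPKM only with library 3 included, so the count of 3 is partly set by that filter. Of 17 ADAM and ADAMTS proteases, 10 averaged 1 FPKM or more and 6 of these were highest in library 3, with Adam9 at 17.5 ± 2.18 FPKM (17.7 in library 3), Adamts1, an aggrecanase, at 10.9 ± 3.99 (16.2 in library 3) and Adam15 at 7.38 ± 2.45 (11.6 in library 3).

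Of 14 other inhibitors and activators, 13 were measured at that level and 7 were highest in library 3, beside 37.4% of all genes tested. Bsg (basigin), a membrane glycoprotein known for inducing MMPs, averaged 468 ± 87.3 FPKM and was highest in library 4, whereas cathepsin B (Ctsb) averaged 100.5 ± 24.8 FPKM and was highest in library 3. Serpinf1, a secreted serpin, averaged 71.9 ± 12.2 FPKM and was lowest in library 3.

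Collagen-processing genes were higher in library 3 than in each other library for 10 of the 14 measured. P4hb, the beta subunit of prolyl 4-hydroxylase, was at 115 FPKM there and 65.2 to 73.2 elsewhere. The collagen chaperone Serpinh1 was at 82.2 FPKM there and 37.4 to 49.0 elsewhere, and the procollagen proteinase enhancer Pcolce at 63.7 and 37.5 to 44.7. Of the other lysyl oxidases, named after their values were seen, Loxl2 and Loxl3 were highest in library 3. Loxl4 was lowest there, at 1.04 FPKM against 1.17 to 1.55 elsewhere. The summed level of the list was 386 FPKM in library 3 and 234 to 256 FPKM in the others.

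Matricellular and elastic fibre genes other than Postn and Tnc were highest in library 3 for 14 of 19, and their summed level was 1185 FPKM there and 694 to 995 FPKM elsewhere. Sparc averaged 380.3 ± 46.6 FPKM (438 in library 3), thrombospondin-4 (Thbs4, also counted among the tendon markers) 152 ± 74.3 (267 in library 3) and Sparcl1 97.3 ± 10.4, and Sparcl1 was highest in library 2. Fibrillar collagens were highest in library 3 for 6 of 7, with Col1a1 at 311 ± 91.6 FPKM (456 in library 3), Col1a2 at 289 ± 70.8 (379) and Col3a1 at 156 ± 100.3 (332). Basement membrane genes were highest there for 11 of 12, their sum being 291 FPKM against 211 to 245, with Lamb2 at 63.1 ± 8.15, Col4a1 at 42.9 ± 7.01 and Col4a2 at 36.5 ± 4.99 FPKM. Col18a1, named after its values were seen, was at 8.07 FPKM there against 3.28 to 4.40. Genes of TGF-beta signalling were highest there for 6 of 8, with a sum of 157 FPKM against 116 to 154. The ligand Tgfb1, named after its values were seen, reached 15.0 FPKM in library 3, with the other libraries at 5.27 to 6.10, and was the only one of the 8 with library 3 far above the rest by Dixon's rule. The latent TGF-beta carrier Ltbp4 (62.8 ± 8.91 FPKM) was lowest there, while Tgfb3 averaged 19.9 ± 3.69 and Ltbp3 18.0 ± 4.05 FPKM. In none of these 8 lists did a gene pass the limma test of spread, and the share of all genes highest in library 3 was 37.4%.

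Markers of other cell types also differed between library 3 and the rest, and their part in the results above was not tested. Their counts too stand beside the 37.4% of all genes tested that were highest in library 3. In whole muscle, more or fewer cells of a type and more or less RNA per cell cannot be told apart. All 10 macrophage markers were highest in library 3, and their sum was 366 FPKM there against 93.4 to 124 FPKM, with Lyz2 at 172 against 29.7 to 46.8, C1qa at 58.4 against 21.5 to 28.9 and C1qc at 32.4 against 11.6 to 15.2 FPKM. The sum of the 6 satellite cell and myoblast markers was 68.9 FPKM against 16.6 to 20.8, with 4 of 4 measured genes highest there. The fusion gene Mymk was at 22.1 FPKM in library 3 and 0 to 1.05 elsewhere, Myog at 30.1 against 6.45 to 11.4 and Myod1 at 12.8 against 5.46 to 8.80. Mymk reached a mean of 1 FPKM only with library 3 included. Pax7 and Myf5, named after their values were seen, averaged under 1 FPKM and were left out of the count. Pax7 was not highest in library 3 (0.481 FPKM there, 0.356 to 1.07 elsewhere), while Myf5 was (1.07 there, 0.383 to 0.796 elsewhere). All 5 adipocyte markers were highest in library 3, with a sum of 281 FPKM against 40.1 to 138, of which Cfd was at 203 FPKM, Adipoq at 33.6 and Cidec at 19.8. Schwann cell markers summed to 186 FPKM against 85.0 to 126 (4 of 5 highest there, with Pmp22 at 56.7 and Mbp at 19.5 FPKM), and smooth muscle and pericyte markers to 230.2 against 139.8 to 185 FPKM (5 of 6, with Rgs5 at 80.5, Acta2 at 69.5 and Tagln at 51.6).

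Fibro-adipogenic progenitors are the cells that make most matrix in muscle. Of their 9 markers 7 were highest in library 3, and the sum was 498 FPKM there and 388 to 495 FPKM elsewhere, with Dcn, which was not highest there, the largest part of it. Within it Dcn was at 202 FPKM against 196 to 300.3, Ly6a at 83.5 against 43.1 to 47.7 and Col6a1 at 96.5 against 42.6 to 61.3 FPKM. Tendon markers summed to 609.7 FPKM in library 3 and 377 to 751 FPKM elsewhere (2 of 8 highest there), with Fmod averaging 251 ± 68.2 and Chad 52.3 ± 17.0 FPKM. None of the 7 endothelial markers was highest in library 3, where they summed to 89.4 FPKM against 89.4 to 115, with Cdh5 at 26.7 ± 3.24, Pecam1 at 24.7 ± 3.05 and Cldn5 at 13.2 ± 3.95 FPKM. Neutrophil markers were near the floor, with Ly6g listed at 0 in every library, S100a8 listed at 0 in libraries 3 and 5, S100a9 at 0.578 FPKM in library 3 and Csf3r at 0.431, and a sum of 1.44 FPKM there against 0.462 to 4.68.

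**Figure D4:**
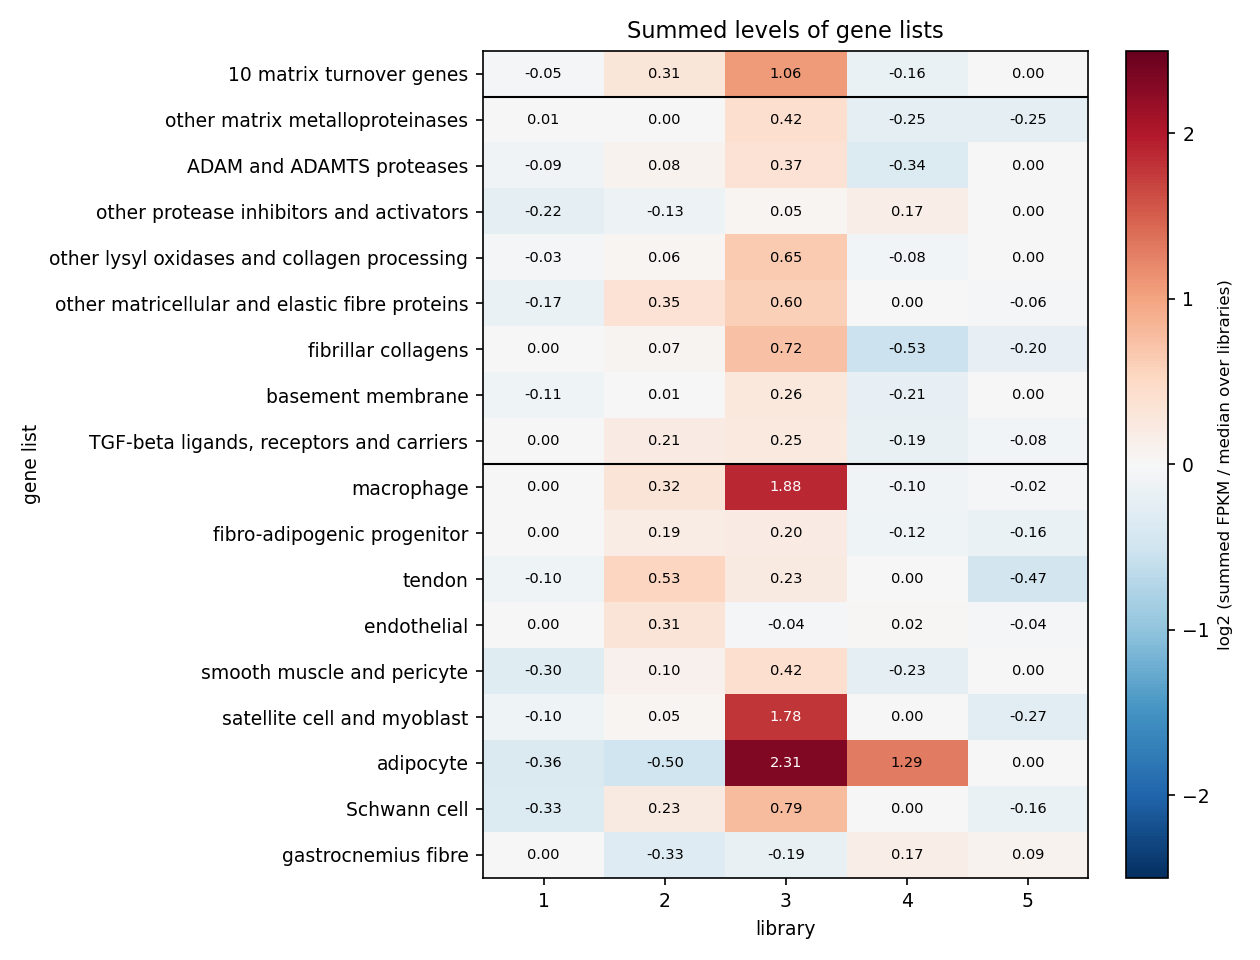
Log2 of the summed FPKM of each gene list in each library over the median of the 5 libraries, for the 10 members (uppermost row), 8 lists of matrix genes and 9 lists of cell type markers (neutrophil markers, near the floor, are not drawn). The members stand at 1.06 in library 3, against 1.88 for macrophage, 1.78 for satellite cell and myoblast and 0.20 for fibro-adipogenic progenitor markers.

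Genes with the most similar profile were sought among 10198 other protein-coding genes, by the root-mean-square difference of mean-centred log2(FPKM + 1) over the 5 libraries. For both Timp1 and Postn the nearest was Tubb6, a beta-tubulin, at a difference of 0.20 and 0.21, which was at 146 FPKM in library 3 and 12.0 to 16.2 elsewhere. The next for both was Chrng, the embryonic subunit of the acetylcholine receptor, at 0.23 and 0.28. Chrng was at 10.2 FPKM in library 3 and 0.030 to 0.136 elsewhere, so it reached a mean of 1 FPKM only with library 3 included. Its values outside library 3 lay far below the 1 added before the logarithm, which narrows its range on that scale. Timp1 and Postn differed from each other by 0.23. Lox lay nearest Tnnt2 and Vim (vimentin), both at 0.10, and Tnc nearest S100a4 at 0.05 and the leukocyte integrin subunit Itgb2 at 0.07. Loxl1 lay nearest Ahnak2 and Aldh3b1, at 0.02 and 0.05.

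The steadier members had other neighbours. Mmp2 lay nearest Myot, a Z-disc protein, at 0.04 and Vgll2 at 0.05, both highest in library 2. Mmp14 lay nearest Crtap, which takes part in collagen prolyl 3-hydroxylation, at 0.05 and Insig1 at 0.05. Timp2 lay nearest Lrrc8d and Usp5 (0.02 and 0.03), Timp3 nearest Aldh1a7 and Ric1 (0.06 each), and Timp4 nearest the water channel Aqp1 at 0.05 and Fbxo36 at 0.05. These differences describe 5 values per gene, and many genes that are high in library 3 would lie close to one another.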

How the data were processed

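The deposited table gives FPKM, which the authors computed from reads, gene length and library total, as the values themselves show. The submitters' processing notes list mm10 as genome build and, as tools without stated roles, edgeR, DESeq2, HTSeq 0.6.1, STAR 2.5 and TopHat. The sources used here give neither strand setting nor annotation release.

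Identifiers were matched to GENCODE M21 (GRCm38, the assembly of mm10), 34490 of 35275. Library totals came from low genes at annotated exon length, and the shortest gene length giving whole reads in every library (within 0.001 of a read) was then taken, which worked for 20838 of 20840 genes above 0. Multiples of that shortest length fit as well, so the length behind a deposited value may be longer than the one taken. Values at annotated exon length were scaled from the length taken and share this limit. Recovered reads were 98.4% ± 0.148 of the totals (SD, n = 5). Intervals cover counting error only.

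Genes averaging 1 FPKM or more were tested on log2(FPKM + 1) with limma 3.58.1 in R 4.3.3, the variance of each gene against its abundance trend (F test, Benjamini-Hochberg), and tested on simulated data. The 8 ratios were tested by exact sign-flip over 32 patterns (Benjamini-Hochberg adjusted p = 0.0714 for the 7 pairs at p = 0.063 and 0.1875 for Timp3 over Timp4). The Dixon share is the gap to the nearest library over the range. Python 3.11.15, numpy 2.4.6, pandas 2.3.3, scipy 1.17.1 and matplotlib 3.10.9 were used.

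The members and lists were chosen with earlier results of these data known. Named genes are all members, the 3 most abundant of each list and the 2 nearest profiles of each member. The value of 1 gene named by this rule is not reported here. Alternatives covered scaling, pseudocount, filter, error model, gene length and leaving out each library.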

Additional observations from a re-analysis of the deposited data

Results flagged for a closer look

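Single libraries lay far from the other 4 by Dixon's rule (limit 0.71 for 5 samples), which chance alone meets in about 1 of 20 groups. Among the members, library 3 was far above the others for Timp1 (34.4 FPKM), Lox (33.0), Loxl1 (35.6) and Postn (61.7), and library 4 was far below them for Timp3 (10.7). Among derived values, library 3 stood apart in the log2 ratios of Timp2 to Timp1 (0.95) and Loxl1 to Lox (0.11), in the summed levels of Lox and Loxl1 (68.6 FPKM) and of Postn and Tnc (75.8 FPKM), and in the shares of Timp1 among TIMPs (26.4%) and of Lox among both crosslinking enzymes (48.1%).

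Among other genes and lists, library 3 stood high in the sums for lysyl oxidases and collagen processing (386 FPKM), macrophage markers (366 FPKM) and satellite cell and myoblast markers (68.9 FPKM). Of the 3 most abundant genes of each list, those with library 3 high were P4hb (115 FPKM), Lyz2 (172), C1qc (32.4), Ly6a (83.5) and Mymk (22.1). Less abundant list genes are not given here, and some also met the rule, Tgfb1 among them. Library 2 stood high in the endothelial sum (115 FPKM) and low in the fast myosin light chain Mylpf (8969 FPKM), and library 5 low in Mmp11 (1.24 FPKM).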

How the results depend on the processing

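Levels, ratios and counts kept their direction and side of the threshold under median-of-ratios scaling, which moved the median of all genes in library 4 by 0.16 (log2) and in the others by -0.10 to 0.10, under a common sum per library, a pseudocount of 0.1, no filter, and with each library left out. The exception was the test of spread, where the chi-square against counting error called 10 members in place of 0. Without library 3, limma called 4 genes of the whole table, none of them a member. At annotated exon length, an alternative chosen after seeing the data, Mmp14 averaged 4.79, Timp3 9.70, Timp4 3.24 and Postn 8.0 FPKM. The log2 ratios were then -2.83 for Mmp14 to Mmp2, 3.25 for Timp2 to Mmp14, 2.35 for Timp2 to Timp3 and 1.32 for Timp3 to Timp4. For these genes the annotated length is longer than the shortest one that fits the deposited values, from which they were scaled. If a multiple of that shortest length was used, the shift would be smaller. With 1 library left out the mean was 2.33 to 10.5 FPKM for Timp1, 4.53 to 19.3 for Postn, 6.50 to 13.4 for Lox and 3.28 to 6.24 for Tnc, the lowest each time without library 3. Likewise the share of Timp1 among TIMPs was 2.67% to 8.72%, and the log2 ratio of Postn to Tnc 0.35 to 0.82. Library 3 stayed the highest for 7 members under both scalings, and median-of-ratios scaling lowered the share of all genes highest there to 27.0%. Dixon's rule, also run after seeing the data, gave 5 members in place of 4 with library 3 high under median-of-ratios scaling and on FPKM without logarithm. The count of members highest in library 3 could not be had without that library. No paired analysis was possible because there is only 1 group. Counting error limits Timp1 most, at 34 to 56 reads outside library 3.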
